A study of Zea mays with 6 samples.

Results

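TAZ1 (GRMZM2G004161), GLK52 (GRMZM2G124495) and HB34 (GRMZM2G002915) are maize genes that carry the names of 3 families of transcriptional regulators. They were selected on the comparison of the 2 groups of arrays described here, as named regulators whose levels stood apart between the groups, so the group values of their transcripts are given as a description and without a test. The array held 8 transcripts of these 3 genes, which were 5 of TAZ1, 1 of GLK52 and 2 of HB34, among 59756 transcripts of 39219 genes.

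Root RNA of 6 samples of the maize cultivar PR33T56 was hybridised to single-colour NimbleGen arrays, with 3 arrays under each of the labels Fe-deficient and Fe-sufficient. The plants of the Fe-deficient label had spent the last 7 d before harvest in nutrient solution with 0 µM Fe-EDTA and those of the Fe-sufficient label in the same solution with 100 µM Fe-EDTA, and all plants were 19 d old at harvest. All plants of both labels had grown before that in a solution free of iron, which held ammonium nitrate. The plants labelled Fe-sufficient were thus supplied with iron only in the last 7 d. The roots of 6 plants were pooled for each array, and the study describes the replicates of a treatment as separate cultivations. The cultivar is called a hybrid in the sample labels and an inbred line in the study's methods, while the probes were designed on the gene models of the line B73, and whether a probe matches PR33T56 was not checked.

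The TAZ domain is a zinc-binding fold through which proteins contact transcription factors. Plants carry it in BTB-TAZ proteins, of which the Arabidopsis members BT1 and BT2 are known as responsive to nitrate, and in acetyltransferases of the CBP type, and the gene table used for names does not say which kind TAZ1 is. The GLK symbol stands for the G2-like DNA-binding factors of the GARP superfamily, named after maize GOLDEN2, a regulator of chloroplast development, and related Arabidopsis GARP factors act in phosphate and nitrate signalling. HB stands for homeobox, a family of DNA-binding factors with roles in meristems, organ shape and the response to water, to which maize KNOTTED1 belongs.

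All levels below are log2 of probe intensity as deposited, and the level of a transcript is the median polish summary of its 2 or 3 probes. A probe was counted as above background on an array where it exceeded the 95th percentile of the 1663 random-sequence probes of that array, and between 58.37% and 66.52% of the 139000 transcript probes of an array did so. A transcript is called where the limma fit over all transcripts gave an adjusted p no higher than 0.05 together with a change of 1.5-fold or more, which 51 transcripts passed, or 0.0853% of those tested. The iron-related genes measured as a check on the labels, TOM1, YS1 and ferritin, were not called. TOM1, an exporter of phytosiderophores, had log2 levels of 12.61, 11.14 and 12.59 on the Fe-deficient arrays and 8.49, 13.51 and 12.52 on the Fe-sufficient arrays, with a limma adjusted p of 0.872. The study, from its own array analysis at the same thresholds, listed TOM1 transcripts as higher under Fe deficiency. It also listed many more changed transcripts than the 51 called here, and the cause of these discrepancies was not tested. The phytosiderophore uptake gene YS1 stood at 11.08, 10.90 and 10.86 on the Fe-deficient arrays and at 11.34, 11.81 and 11.11 on the Fe-sufficient arrays. YS1 was thus lower on every Fe-deficient array, but narrowly, with 11.08 as the highest value there against 11.11 as the lowest Fe-sufficient value. Such a separation was shown by 4574 of all 59756 transcripts, so little can be read from it. The study reported YS1 as higher under Fe deficiency by real-time RT-PCR. YS1 (limma adjusted p = 0.491) and ferritin (limma adjusted p = 0.731) were not called either. The groups are therefore given by their labels only. The array Fe-sufficient 1 stood farthest from the others of its label, with a root mean square distance of 0.55 over transcripts against 0.37 and 0.39. Fe-deficient 2 stood nearly as far from the others of its own label, at 0.53 against 0.31 and 0.42. All arrays lay on 1 slide, with the labels at separate positions, so slide position and label cannot be told apart.

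Of the 8 transcripts, 7 were higher on every array labelled Fe-deficient than on any array labelled Fe-sufficient, and 6 of them were called, all as higher. The calls depended on which arrays were kept, for the members as for all transcripts. Of the 8, 0 were called without Fe-deficient 1 or without Fe-sufficient 2, where 2 and 3 of all transcripts were called. Without Fe-sufficient 3 the counts were 1 of the 8 and 6 of all, and without Fe-deficient 2 they were 4 and 22. Without Fe-deficient 3 they were 6 and 21, and without Fe-sufficient 1 they were 7 and 1096. The differences of the 7 stayed above 2.2 with any 1 array left out. Over all transcripts 9.75% were higher without overlap of the groups and 0.0703% were called as higher, and nothing is read from the members' counts against these shares because the comparison chose the genes. The transcript that did not separate the groups was HB34 T02. Because the samples are whole roots, more cells that hold these transcripts and more transcript per cell cannot be told apart.

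**Figure D1:**
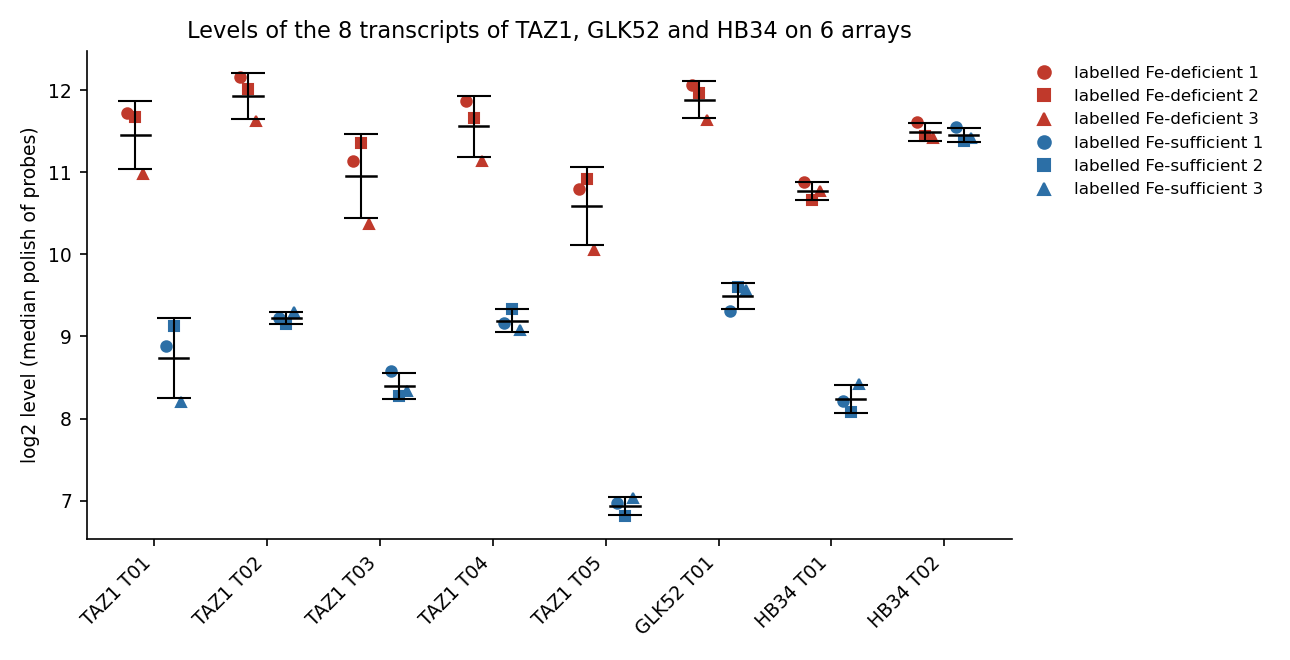
Log2 level (vertical axis, median polish of the probes) of the 8 transcripts of TAZ1, GLK52 and HB34 on the 6 arrays, in red the arrays labelled Fe-deficient and in blue the others, with the mean and 1 SD of each group (n = 3). The red and blue points are apart for 7 transcripts, by at least 1.80, and lie over each other for HB34 T02.

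TAZ1 was higher on the arrays labelled Fe-deficient in all 5 of its transcripts. TAZ1 T05 stood at log2 levels of 10.79, 10.92 and 10.05 on the arrays Fe-deficient 1, 2 and 3 and at 6.97, 6.81 and 7.03 on the arrays Fe-sufficient 1, 2 and 3. On the first group of arrays it was above background on 3 of 3, and on the second on 0 of 3, so that only a bound can be given for the low side. The bound is at least 5.51-fold higher in the arrays labelled Fe-deficient, taken against the lowest probe signal that exceeded background on each Fe-sufficient array, and the measured group means were 10.59 ± 0.47 and 6.94 ± 0.11 (SD, n = 3 each). The values of TAZ1 T05 on the Fe-sufficient arrays have no order among themselves.

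The other 4 transcripts of TAZ1 had differences between 2.36 and 2.72. TAZ1 T02 stood at 12.16, 12.01 and 11.62 on the Fe-deficient arrays and at 9.22, 9.15 and 9.30 on the Fe-sufficient arrays. Its means of 11.93 ± 0.28 and 9.23 ± 0.08 (SD, n = 3 each) were 6.51-fold apart. TAZ1 T04 stood at 11.87, 11.66 and 11.14 and at 9.16, 9.34 and 9.08, with means of 11.56 ± 0.37 and 9.19 ± 0.14, or 5.14-fold apart. Both were above background on all 6 arrays, but only by their second probe. The first probe was above background on 1 Fe-sufficient array for TAZ1 T02 and on 0 for TAZ1 T04. The levels and folds of both thus rest in part on values below background. In both the array Fe-deficient 3 held the lowest value of its group and still stood well clear of all Fe-sufficient arrays.

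TAZ1 T03 stood at 11.13, 11.35 and 10.37 on the Fe-deficient arrays and at 8.58, 8.28 and 8.34 on the Fe-sufficient arrays. Its means were 10.95 ± 0.51 and 8.40 ± 0.16, or 5.86-fold apart, and it was above background on 2 of the 3 Fe-sufficient arrays. TAZ1 T01 stood at 11.72, 11.67 and 10.98 and at 8.89, 9.13 and 8.20. This was the 1 TAZ1 transcript that was not called, although its difference of 2.72 between means of 11.46 ± 0.41 and 8.74 ± 0.49 (6.58-fold) was as large as that of TAZ1 T02. The spread within its groups, 0.45 as a pooled SD, was the largest among the 8 transcripts and larger than in 85.5% of all transcripts, whereas that of TAZ1 T02 was 0.21 and larger than in 39.9%. The spread of TAZ1 T01 on the Fe-sufficient arrays lay mostly in its probe at position 131, which stood at 10.08, 10.07 and 9.17 on the Fe-deficient arrays and at 7.16, 7.78 and 6.19 on the Fe-sufficient arrays. That probe was above background on 0 of the 3 Fe-sufficient arrays, with an SD of 0.80 there against 0.21 for the other probe of TAZ1 T01, so the level of the transcript rests in part on values below background.

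Each TAZ1 transcript was read by 2 probes, and all 10 probes were higher on every Fe-deficient array than on any Fe-sufficient array, with a smallest gap of 0.93. Of these probes, 3 were above background on all 6 arrays, and 4 on none of the Fe-sufficient arrays. At the first probe of TAZ1 T04 the log2 values were 10.33, 10.09 and 9.17 on the Fe-deficient arrays and 7.94, 8.24 and 7.72 on the Fe-sufficient arrays. It was above background on none of the Fe-sufficient arrays, so its measured difference of 1.90 rests on values below background and is not set against that of other probes. At the second probe of TAZ1 T04, which was above background everywhere, the values were 13.41, 13.22 and 13.12 and then 10.38, 10.45 and 10.43, with a difference of 2.83.

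The far probes of TAZ1 T01 and T02 gave almost the same difference as that of T04. The probe at position 1350 of TAZ1 T01 stood at 13.36, 13.28 and 12.79 on the Fe-deficient arrays and at 10.62, 10.49 and 10.20 on the Fe-sufficient arrays, a difference of 2.71. The probe at position 1198 of TAZ1 T02 stood at 13.39, 13.13 and 13.09 and at 10.57, 10.37 and 10.56, which also differed by 2.71. These 3 probes, with TAZ1 T04 at position 1276, were above background on all 6 arrays and had the smallest spread of the TAZ1 probes in the Fe-deficient group, with SDs of 0.31, 0.16 and 0.15. Transcripts of 1 gene commonly share exons, and probe sequences were not analysed here, so the 10 probes are not 10 separate measurements of TAZ1.

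Other probes of TAZ1 were not above background on every array. The 2 probes of TAZ1 T05 lie at positions 1 and 10, close enough that they may read the same bases, and had measured differences of 3.70 and 3.60. The first stood at 11.26, 11.27 and 10.46 against 7.42, 6.96 and 7.50 on the Fe-sufficient arrays, and the second at 10.32, 10.57 and 9.63 against 6.52, 6.66 and 6.55. Neither was above background on a Fe-sufficient array, so the size of these differences is not known beyond the bound. The first probe of TAZ1 T02, above background on 1 Fe-sufficient array, stood at 10.93, 10.88 and 10.14 and at 7.88, 7.93 and 8.04. The 2 probes of TAZ1 T03, at positions 1 and 714, differed by 2.19 and 2.91 and were each above background on 2 of the 3 Fe-sufficient arrays.

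**Figure D2:**
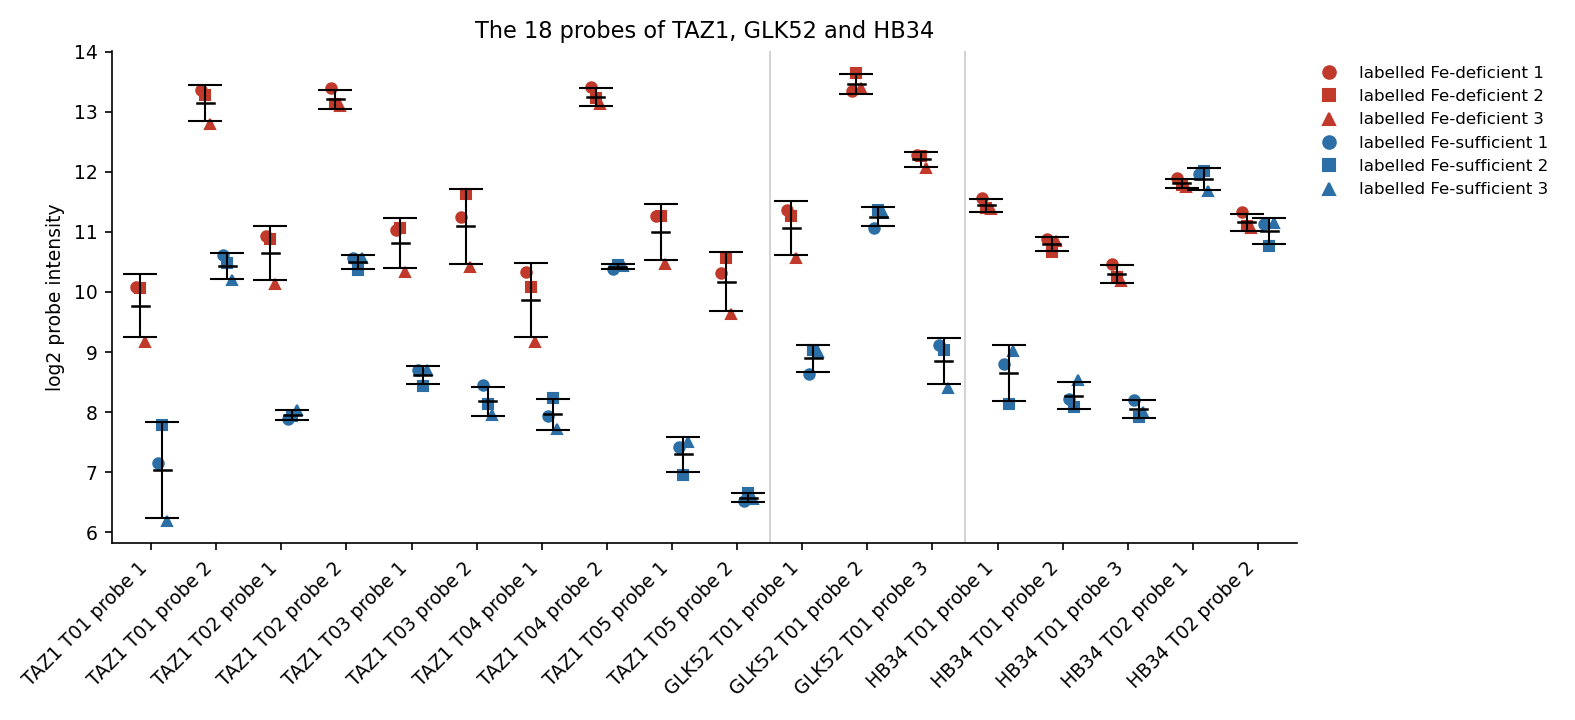
Log2 intensity (vertical axis) of each of the 18 probes of TAZ1, GLK52 and HB34 on the 6 arrays, in red the arrays labelled Fe-deficient and in blue the others, with the mean and 1 SD of each group (n = 3). All 10 probes of TAZ1, all 3 of GLK52 and the 3 of HB34 T01 separate the groups, while the 2 of HB34 T02 overlap.

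GLK52 was represented by 1 transcript with 3 probes. GLK52 T01 stood at 12.06, 11.96 and 11.63 on the Fe-deficient arrays and at 9.31, 9.60 and 9.57 on the Fe-sufficient arrays. The lowest Fe-deficient array lay 2.03 above the highest Fe-sufficient array. The means were 11.88 ± 0.22 and 9.50 ± 0.16 (SD, n = 3 each), a difference of 2.39 or 5.24-fold, and the transcript was above background on all 6 arrays and called.

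The 3 probes of GLK52 were unequal in their differences. The probe at position 1785 stood at 12.28, 12.27 and 12.06 and at 9.11, 9.04 and 8.41, a difference of 3.35 or 10.2-fold. The probes at positions 766 and 1175 differed by 2.17 and 2.21, and the median polish summary of 2.39 lay nearer to this pair. All 3 were above background on all 6 arrays, so these differences were measured on both sides. The probe at position 766 stood at 11.37, 11.27 and 10.56 and at 8.64, 9.03 and 9.01, and the probe at position 1175 at 13.35, 13.64 and 13.39 and at 11.07, 11.36 and 11.32.

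HB34 was split between its 2 transcripts. HB34 T01 stood at 10.88, 10.66 and 10.77 on the Fe-deficient arrays and at 8.22, 8.08 and 8.42 on the Fe-sufficient arrays, and was above background on 2 of the latter. The means were 10.77 ± 0.11 and 8.24 ± 0.17 (SD, n = 3 each), a difference of 2.53 or 5.77-fold. HB34 T02 stood at 11.61, 11.44 and 11.41 and at 11.55, 11.38 and 11.42, so its groups lay over each other. Its means of 11.48 ± 0.11 and 11.45 ± 0.09 differed by 0.04, with a 95% interval from limma of -0.29 to 0.36, or 0.821-fold to 1.28-fold.

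The probes of HB34 divided in the same way. Those of HB34 T01, at positions 350, 420 and 442, differed by 2.79, 2.52 and 2.25, and each was higher on every Fe-deficient array, with gaps of 2.35, 2.14 and 1.97. Those of HB34 T02, at positions 1253 and 1305 of its own transcript model, differed by -0.07 and 0.15. The first of this pair stood at 11.89, 11.78 and 11.75 against 11.96, 12.01 and 11.68, and the second at 11.33, 11.09 and 11.06 against 11.13, 10.76 and 11.15. Where position is counted from is not given in the files, so positions of the 2 transcripts are not set against each other.

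Taken within each array, HB34 T01 minus HB34 T02 was -0.73, -0.77 and -0.63 on the Fe-deficient arrays and -3.32, -3.30 and -2.99 on the Fe-sufficient arrays. This quantity compares the change of the transcripts and not their amounts, since each is read by its own probes. Its group means were -0.71 ± 0.07 and -3.20 ± 0.18 (SD, n = 3 each), which differ by 2.49. Among 8532 genes with at least 2 transcripts measured in both groups (above background on every array of one and on at least 1 array of the other), the difference between groups varied from transcript to transcript by a median of 0.27, with a 95th percentile of 0.95. Only 4 of these genes, HB34 included, had a range as large as 2.49, which is 0.0469% of them. This place is a description and no support, because the comparison that gives the difference of HB34 T01 also chose the gene. TAZ1 without T05, which was below background on the Fe-sufficient arrays, had a range of 0.36, which 38.0% of these genes reached.

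The profiles of the transcripts over the 6 arrays were compared after subtracting each transcript's own mean, with the root mean square distance as the measure. GLK52 T01 and TAZ1 T04 were 0.13 apart, TAZ1 T02 and HB34 T01 0.19, and GLK52 T01 and HB34 T01 0.20. These 3 distances between genes, and that of 0.19 between TAZ1 T02 and GLK52 T01, were below those among TAZ1 T01 to T04, which ran from 0.21 to 0.33. The other distances between genes among these transcripts lay within or above that range. They ran from 0.27 for TAZ1 T03 and GLK52 T01 to 0.46 for TAZ1 T01 and HB34 T01. The distances of TAZ1 T01 to T04 and of HB34 T01 rest in part on probe values below background. Distances of TAZ1 T05 are not given, since its Fe-sufficient values were all below background. HB34 T02 was 1.25 from HB34 T01 and between 1.18 and 1.39 from TAZ1 T01 to T04 and GLK52 T01. These values describe 6 points each that share the arrays and the contrast that chose the genes.

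**Figure D3:**
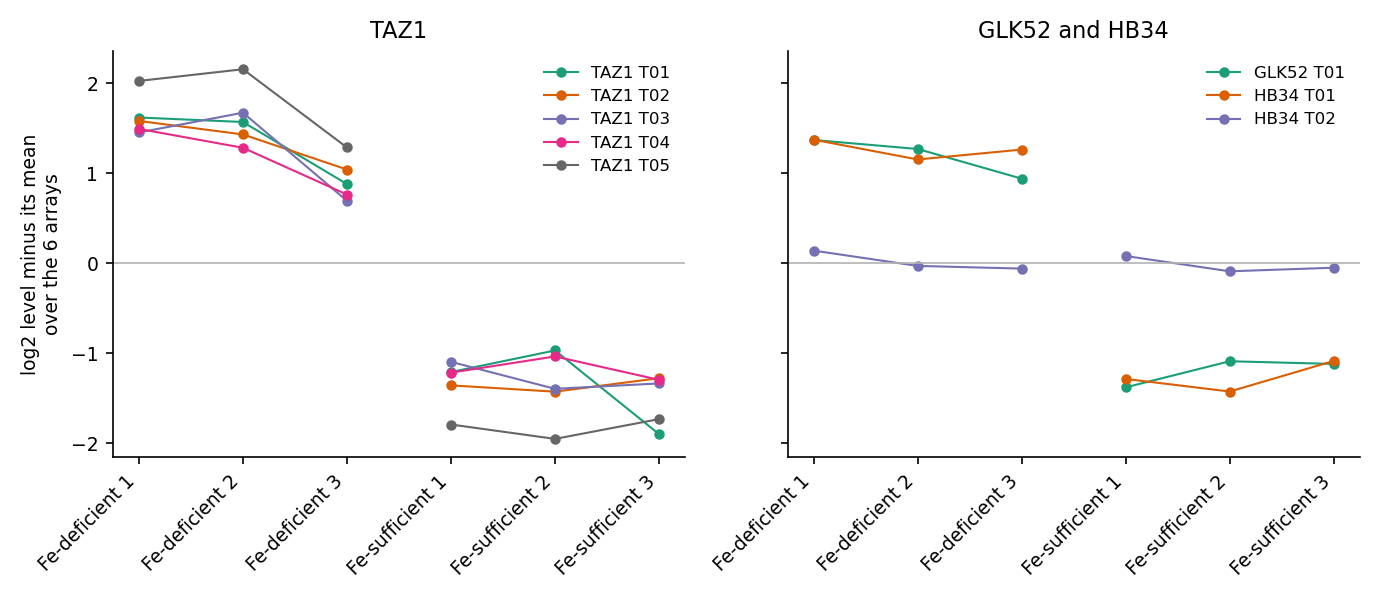
Log2 level minus its mean over the 6 arrays (vertical axis) for the transcripts of TAZ1 (left) and of GLK52 and HB34 (right), by array (horizontal axis), with lines joining arrays of the same label. The TAZ1 and GLK52 lines dip at Fe-deficient 3, the HB34 T01 line does not, and HB34 T02 stays near 0.

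Within the Fe-deficient group the array Fe-deficient 3 was lower than the mean of the others by amounts that differed between the genes. The deviation was -0.71, -0.47, -0.87, -0.62 and -0.81 for TAZ1 T01 to T05 and -0.38 for GLK52 T01. For HB34 T01 it was 0.00, and for HB34 T02 it was -0.12, while the median over all transcripts was 0.02. As transcript values, TAZ1 and GLK52 were thus lower on 1 array of their group on which HB34 T01 was not. For GLK52 this lay mostly in its first probe, and a difference between the genes was not tested. Among the probes, the deviation was -1.04 at the first probe of TAZ1 T04 and -0.20 at the second. For TAZ1 T03 the order was the opposite, with -0.72 at the first and -1.02 at the second. The 3 probes of GLK52 deviated by -0.77, -0.11 and -0.22 and the 3 of HB34 T01 by -0.10, 0.08 and -0.18. All but the first probe of GLK52 were thus close to those of HB34 T01. Over 28012 transcripts whose first and last probes lie at least 500 apart, the first probe deviated from the last by a median of -0.10 on Fe-deficient 3 and of -0.40 on Fe-sufficient 1, and the part of this in the members' values was not tested.

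Leaving out the array Fe-sufficient 1 moved the members little. TAZ1 T05 then differed by 3.67, TAZ1 T01 by 2.79, TAZ1 T02 by 2.70, TAZ1 T03 by 2.64 and TAZ1 T04 by 2.35. GLK52 T01 differed by 2.30 and HB34 T01 by 2.52, while HB34 T02 differed by 0.09. Genes known from leaves were measured as a check on the tissue. Of 8 leaf genes measured, 4 were above background on all 6 arrays, and rca1, the gene of Rubisco activase, was above background on none. The log2 of their summed intensity, most of it from ppdk1 at 13.96 to 14.95, lay between 14.73 and 15.12 on the Fe-deficient arrays and between 14.31 and 14.62 on the Fe-sufficient arrays. None of the leaf genes was called. The 3 genes taken as root genes, rth3, rtcs1 and ys1, were above background on every array, and ys1 is also the iron-related gene YS1 above. The log2 of their summed intensity was 12.67 to 13.40 on the Fe-deficient and 13.13 to 13.50 on the Fe-sufficient arrays. The part of leaf genes in the members' differences was not tested.

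No other transcript of the GLK, HB and TAZ families was called. Over all transcripts only 0.0853% were called, so counts of 0 in sets this small say nothing particular about these families. Of 17 transcripts of 9 other GLK genes 0 were called by limma, and 2 had an unadjusted p of at most 0.05. Their differences ran from -0.86 to 1.55 with a median of 0.08, against a median of 0.01 over all transcripts. GLK44 (GRMZM2G124540) came nearest to GLK52 in size. GLK44 T01 stood at 13.69, 14.54 and 13.55 and at 12.98, 12.45 and 11.69, a difference of 1.55 with a 95% interval of 0.64 to 2.47 (limma adjusted p = 0.391). GLK5 (GRMZM2G016370) had a difference of 1.54 that came from 1 array, since Fe-deficient 2 stood at 9.99 and the other 5 between 6.10 and 6.99 (limma adjusted p = 0.534). The GLK transcripts with the most negative differences were GLK47 T02 (GRMZM2G060834) at -0.86 and GLK15 T05 (GRMZM2G162409) at -0.44, with limma adjusted p of 0.495 and 0.463.

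Of 39 transcripts of 19 other HB genes 0 were called and 4 had an unadjusted limma p of at most 0.05. Their differences ran from -0.66 to 1.04 around a median of -0.02, and the 1.04 was that of HB53 T05, which was not above background. The 2.53 of HB34 T01 lay beyond this range and the 0.04 of HB34 T02 within it. The place of HB34 T01 is a description and no support, because this comparison chose the gene. The HB transcripts with the largest positive differences among those above background on all arrays were HB128 T01 (GRMZM2G041462) at 0.83 and HB45 T02 (GRMZM2G126808) at 0.70, with limma adjusted p of 0.492 and 0.634. HB115 T02 (GRMZM2G021339) at -0.66 and HB84 T01 (GRMZM2G099319) at -0.65 were the most negative, with limma adjusted p of 0.463 and 0.495.

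TAZ3 (GRMZM2G121115) was the 1 other gene with a TAZ symbol. TAZ3 T01, the transcript above background on all arrays, stood at 8.89, 8.76 and 8.89 on the Fe-deficient arrays and at 9.13, 9.54 and 9.57 on the Fe-sufficient arrays. It lay lower on every Fe-deficient array, opposite to TAZ1, and was 1 of 4574 transcripts out of 59756 that did so. Its difference was -0.57, with a limma adjusted p of 0.433. It was not called.

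**Figure D4:**
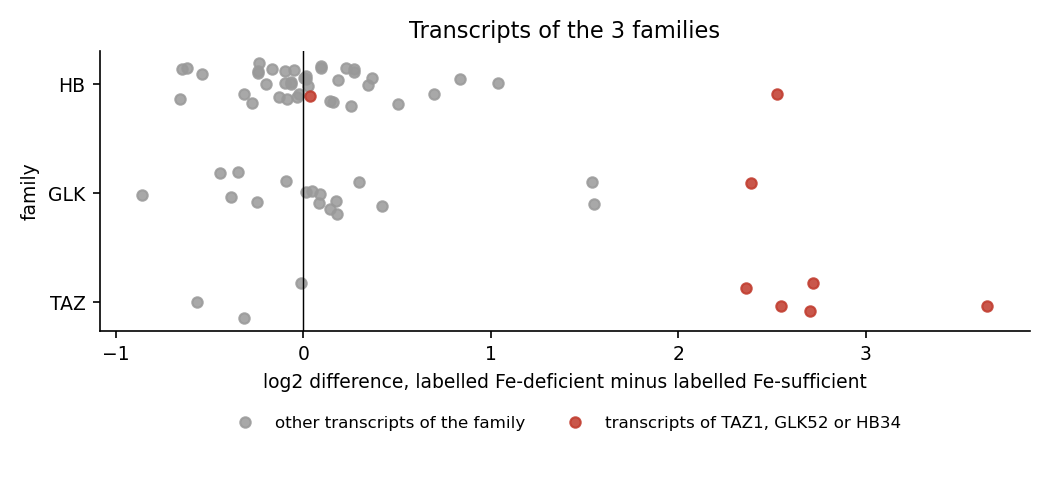
Difference in log2 level, labelled Fe-deficient minus labelled Fe-sufficient (horizontal axis), of each transcript of the HB, GLK and TAZ symbols (rows, points spread vertically for sight), red for TAZ1, GLK52 and HB34 and grey for the other genes of each family. The red points other than HB34 T02 lie at 2.36 or above, and the grey points lie between -0.86 and 1.55. The difference shown chose the red genes, so their place is a description.

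Widening the set to all other genes with a regulator symbol, 623 transcripts of 347 genes in 31 families, gave 0 calls by limma. With 0.0853% called over all transcripts, this count does not set regulators apart from other genes. An unadjusted p of at most 0.05 was reached by 61 of them, or 9.8%, against 10.3% of all transcripts. Their median difference was 0.01 and their range -1.84 to 2.37. Among NIN-like proteins, which are nitrate regulators in Arabidopsis, the 1 transcript on the array with such a symbol differed by 0.59 and was not called. Among LBD genes, some of which are nitrate-responsive in Arabidopsis, 0 of 5 transcripts were called. The genes without a regulator symbol in the table, which may hold further members of these families, were not counted.

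The genes whose profiles lay nearest to each member were sought among 46465 transcripts that exceeded background on every array of at least 1 group. A transcript must share the size of a member's difference to lie near it, so nearness adds no evidence for the difference. For TAZ1 T05 the nearest was the nitrite reductase gene NIR (GRMZM2G079381), which reduces nitrite to ammonium, at a distance of 0.28. The Fe-sufficient values of TAZ1 T05 were below background, so the distances and their order for this transcript are uncertain. NIR T05 stood at 14.21, 14.59 and 14.03 and at 11.15, 10.73 and 10.46, or 11.3-fold apart. The haemoglobin gene Hb2 (GRMZM2G168898), at a distance of 0.31, stood at 11.32, 11.15 and 11.00 and at 8.10, 7.68 and 8.03, and GRMZM2G474039, GRMZM2G102959 and GRMZM2G000739 lay at 0.31 to 0.33.

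For GLK52 T01 the nearest was fnr1 (GRMZM2G058760), a ferredoxin-NADP reductase, at 0.10. It stood at 13.92, 13.96 and 13.73 on the Fe-deficient arrays and at 11.46, 11.47 and 11.57 on the Fe-sufficient arrays, or 5.17-fold apart. It was also the gene nearest to HB34 T01, at 0.15. The haemoglobin gene GLB1 (GRMZM2G067402) lay 0.22 from GLK52 T01, and GRMZM2G107226 and GRMZM2G133684 were among the 5 nearest of both GLK52 T01 and HB34 T01. The fifth nearest to GLK52 T01 was GRMZM2G181081, at 0.26. HB34 T01 had GRMZM2G121878 at 0.22 and pdh2 (GRMZM2G043198) at 0.31, and pdh2 was the 1 gene of these lists that was not called. The background cutoffs of Fe-sufficient 1, 2 and 3 were 7.945, 8.489 and 7.936. The levels of GRMZM2G107226, GRMZM2G133684, GRMZM2G181081 and GRMZM2G121878 lay below them on all 3, and that of pdh2 on Fe-sufficient 1 and 2. The differences and distances of these genes, and their order, are thus uncertain.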

How the data were processed

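Root RNA of 6 samples, 3 per label, was measured on single-colour arrays. The deposited files give a linear intensity per probe that the authors had already normalized between arrays by quantiles. The submitters' processing notes name RMA, and a background subtraction before deposit is neither named nor denied in the labels or methods. A series-wide table as deposited held the same intensities, with a largest difference of 0. All arrays came from 1 slide, with Fe-sufficient at positions 7, 8 and 9 and Fe-deficient at positions 10, 11 and 12, so no slide block was fitted.

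Intensities were put on a log2 scale without a further correction and summarised per transcript by median polish. Transcripts were compared as Fe-deficient minus Fe-sufficient with lmFit and eBayes of limma 3.58.1 (R 4.3.3) without covariates, with Benjamini-Hochberg adjustment over 59756 transcripts. A call needed an adjusted p no higher than 0.05 and a change of 1.5-fold or more, as in the study's methods. The script was tested on simulated arrays. A transcript was above background where at least 1 of its probes exceeded the 95th percentile of random probes. Where a transcript was not above background on any array of its dimmer group, its fold is a bound: on each such array its value was raised to the lowest probe signal above background where it lay below that, and the mean of these was set against the brighter group's mean. The number of arrays limits the precision of all values.

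The members, gene lists and tests were chosen with earlier results of these data known. Named were every transcript of the 3 genes, the called transcripts of the GLK, HB and TAZ symbols with the 2 largest positive and 2 largest negative differences per family among transcripts above background on all 6 arrays, and the 5 genes nearest in profile to the transcript of each gene with the largest difference, 1 transcript per gene. Families were sets of symbols in a RefSeq table of the maize assembly Zm-B73-REFERENCE-NAM-5.0, used for names only, to which 18172 of 39219 genes matched 1 entry. Hb2, a haemoglobin caught by the HB symbol rule, was left out of that family after its name was seen. Protein, promoter and probe sequences were not analysed here. Alternatives were other background corrections, normalizations, probe summaries, single probes, array weights, a replicate block, each array left out, a dim filter and other thresholds. Tables and figures were made in Python 3.11.15 with matplotlib 3.10.9, numpy 2.4.6 and pandas 2.3.3.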

Additional observations from a re-analysis of the deposited data

How the results depend on the processing

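Calls depended on single arrays more than differences did. The count of all transcripts called was 51, and of member transcripts 6. The count of all called was 28 after an RMA-type background correction, 165 with array weights and 11 at an adjusted p of at most 0.01, where 3 members stayed called. With 1 array left out it lay between 2 and 1096, and the members called lay between 0 and 7. The counts without the array named were 2 and 0 without Fe-deficient 1, 22 and 4 without Fe-deficient 2, 21 and 6 without Fe-deficient 3, 1096 and 7 without Fe-sufficient 1, 3 and 0 without Fe-sufficient 2, and 6 and 1 without Fe-sufficient 3, the 1 being HB34 T01. Other named regulators, of which 0 were called, had 2 calls with array weights, and between 0 and 8 with an array left out, the 8 without Fe-sufficient 1. In every alternative, the replicate block included, 7 member transcripts kept an unadjusted limma p of at most 0.05 with a fold of at least 1.5. The same cut was passed by 2223 to 6345 of all 59756 transcripts, depending on the alternative. The members' count is a description only, since this contrast chose the genes.

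A fit with a replicate block called 0 transcripts and 0 members. After subtraction of the group means, arrays of the same number correlated at -0.13, -0.02 and 0.09 over 46465 transcripts. These values cannot exclude that arrays of the same number shared a cultivation, since deviations of single arrays enter them too. The study does not say whether they did, so the fit with the block is not set aside.

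Of 130 values of member differences under alternatives, 117 moved by less than the spread between arrays and 0 reversed a called value. Those that moved more were TAZ1 T04 at 1.90 from its first probe and 2.83 from its second and brightest, TAZ1 T05 at 4.14 after the RMA-type correction, GLK52 T01 at 2.17 from its first probe and 3.35 from its last, HB34 T01 at 2.79 from its first and brightest probe and 2.25 from its last, and HB34 T02 at 0.14 with array weights, -0.074 from its first and brightest probe and 0.15 from its second. With each array left out, the difference ran from 2.45 to 2.96 for TAZ1 T01, 2.59 to 2.86 for T02, 2.35 to 2.84 for T03, 2.21 to 2.57 for T04, 3.48 to 3.92 for T05, 2.30 to 2.52 for GLK52 T01, 2.45 to 2.62 for HB34 T01 and -0.03 to 0.09 for HB34 T02. Signals below background on arrays labelled Fe-sufficient limit TAZ1 T05 to a bound. The cause of these shifts was not tested.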
